A study of Mus musculus with 18 samples.

Results

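The comparison set all 9 caput epididymis libraries collected after ethanol cessation against all 9 collected at 10 weeks, with the ethanol dose as a block. Membership came from the treatment label alone: 9 of 18 libraries carried the word for cessation and 9 did not, so all 18 libraries of the series took part. The mice were C57BL/6J, and each collection held 3 libraries of controls without ethanol (EtOH), 3 with 6% EtOH and 3 with 10% EtOH. The 10-week groups are labelled with 10 weeks, and the series title puts cessation at 1 month. The controls of the cessation collection carry the cessation label although they are named controls, so the contrast covers whatever differed between both collections, with or without ethanol. The difference was therefore also taken in controls alone and tested for a dependence on dose. The sources used here do not give age, route of dosing, time of day, interval to dissection or sequencing run. Since no label names a shared litter or cage, p-values reflect only how far libraries of a group spread, which may be technical.

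The caput is the first part of the epididymal duct. Its principal cells secrete proteins, small RNAs and vesicles that sperm take up, and its initial segment depends on factors in testicular fluid. Immediate early genes, such as those of the AP-1, Egr and Nr4a families, are transcribed within minutes of a signal from existing transcription factors, and their mRNAs are short-lived. Their products control a later set of genes that includes cytokines, chemokines, adhesion molecules and feedback inhibitors of the same signalling.

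The 10-week libraries held 15.6M to 21.07M counts and those after cessation 10.72M to 17.2M. Their means were 17.76 ± 1.81 and 14.07 ± 2.09M (SD, n = 9 each). The difference of -3.69M had a two-sided exact permutation p of 0.0005 over 8000 permutations within dose. Biological variation between libraries was 17% at 10 weeks and 31.2% after cessation, as coefficients of variation. Gpx5, a secreted caput antioxidant enzyme, took 36100 to 50800 CPM at 10 weeks and 16800 to 44100 after cessation. CPM are counts scaled to library size, with TMM factors. Of 11 listed transcripts of other accessory glands only 2 were tested, and these summed to at most 3.01 CPM. The untested ones, among them Svs2, Svs5 and Pbsn, are not in that sum. On the first principal component (32.9% of variance), the 10-week libraries lay between -41.5 and -9.98 and the cessation libraries between -23.5 and 91.3. Of the cessation libraries, replicate 2 of the controls and replicate 1 of 10% EtOH fell inside the 10-week span. Identifiers of 2 libraries stood apart. That of 10% EtOH 10-week replicate 3 was of another kind than the others. For 6% EtOH cessation replicate 1 the identifier in the label differed from that of its counts, so its group rests on the label. Both were kept in their labelled groups, and calls were also counted without both.

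Of 18618 genes tested, 3417 differed between collections at an adjusted p under 0.05 (18.4%). After cessation 1976 were higher (10.6%) and 1441 lower (7.74%), by edgeR's quasi-likelihood test with Benjamini-Hochberg adjustment. Among the genes that passed, the rises were larger than the falls. Their levels also differed, with a median log2 CPM of 2.55 for genes that rose and 5.88 for genes that fell. The part of level in these sizes was not tested. Among genes that rose, 905 did so at least 2-fold and 135 at least 4-fold, with a median log2 fold change of 0.96. Among genes that fell, 13 did so at least 2-fold, and the median was -0.35. The only fall past 4-fold was Alb, which encodes serum albumin and was chosen for mention after its values were seen. Alb had a median of 0 CPM in both collections and a highest value of 3.13 CPM at 10 weeks and 0.144 CPM after cessation. A stricter count needs no model: in 189 genes (1.02%) the 3 cessation libraries all lay on one side of the 3 10-week libraries in each of the 3 doses. Of these 111 were higher after cessation (0.596%) and 78 lower (0.419%), and 110 and 78 of them also passed the test. The 15 largest rises and 15 largest falls named here were taken from genes apart in every dose, so their separation within doses is a description. Leaving out single libraries gave 1680 calls (without control cessation replicate 3) to 5331 (without 10% EtOH cessation replicate 1). The count of calls fell to 655 with 1 surrogate variable, and to 2447 without the pair of libraries with odd identifiers. The share of calls that were higher went from 57.8% to 31.3% when length and GC trends were removed, which moved the median of all genes from 0.0504 to -0.0897 on the log2 scale. It was 64.9% with upper-quartile factors and 49.3% with voom weights.

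**Figure D1:**
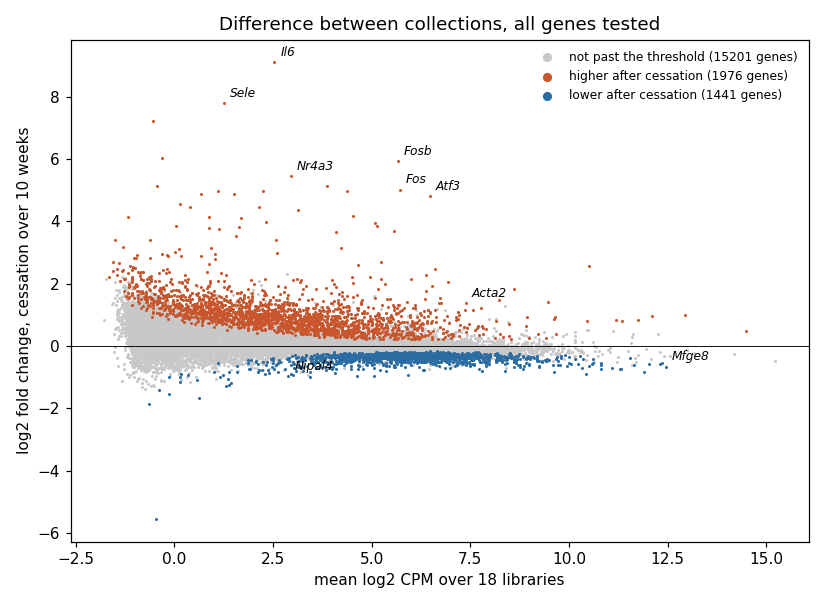
Log2 fold change (cessation over 10 weeks) of each of the 18618 genes tested against its mean log2 CPM over 18 libraries, coloured by whether it passed the threshold. The 1976 rises reach far larger sizes than the 1441 falls, and the labelled early genes and signals lie at the top.

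Genes of the AP-1 family, which encode subunits of a dimeric early transcription factor, were higher after cessation in 11 of 12 members, with none lower and a median log2 fold change of 1.92. The same median over all genes tested was 0.0504. Fos, the founding subunit, ranged from 0.671 through a median of 1.51 to 22.4 CPM at 10 weeks and from 40.9 through 112 to 160 CPM after cessation. The 2 collections did not overlap, although 1 library, control 10-week replicate 3, stood far above the other 8 of its collection. The log2 fold change of Fos was 5.02 ± 0.63 (SE, edgeR adjusted p = 0.000376), and 5.97 without that library. Fosb, its close relative, went from 0.354, 0.697 and 10.9 CPM (lowest, median, highest) to 42.8, 80.4 and 188 CPM. The same control library was the highest at 10 weeks, and again there was no overlap. Fosb rose by 5.93 ± 0.62 (log2, adjusted p = 6.31e-05 in edgeR), and by 7.24 without that library. Atf3, a stress-induced partner of Jun proteins, went from 3.72, 5.21 and 8.85 CPM to 52.3, 119 and 575 CPM. Every cessation library was above every 10-week library, and the log2 fold change was 4.80 ± 0.41 (edgeR adjusted p = 7.77e-06). Junb and Jun, the Jun subunits, rose by 1.78 ± 0.18 and 2.06 ± 0.24 with no overlap of their ranges (34.8 to 41.9 against 67.3 to 240 CPM, and 36.2 to 72.0 against 83.1 to 338 CPM). Maff, a small Maf protein, rose by 3.16 ± 0.49 (adjusted p = 0.00224 in edgeR). Fosl1 had 0 counts in all 9 libraries of 10 weeks and 156 after cessation. That is 61.4-fold higher when set against a floor of 3 counts over the group, and the 95% counting interval starts at 49.3-fold. Both values cover counting error only. Batf3 did not pass (1.24 ± 0.66, edgeR adjusted p = 0.179).

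**Figure D2:**
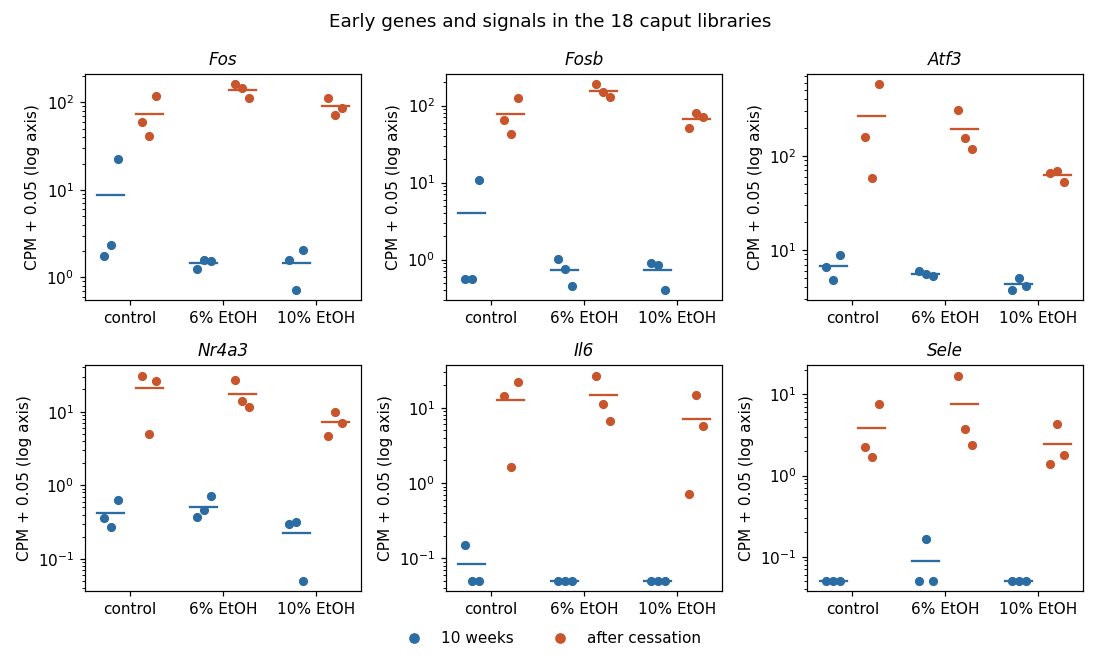
Level of 6 genes in each library (points, CPM + 0.05 on a log axis) by dose and collection, with lines at the means of 3 libraries. The genes are among those chosen for libraries that lie apart in every dose, and control 10-week replicate 3 is high for Fos and Fosb.

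The sequence before the start of these genes is shown because early genes are switched on from short sites close to the start. Only genes with a sequence window at hand, outside 1 chromosome left out of the search, could be shown. Fosl1 and Egr1 (a log2 rise of 2.48) are among those left out. Of the genes with a window, the 4 early genes with the largest rises are followed by 2 others that hold a cyclic AMP response element (CRE). Each is given as the 250 bases before the RefSeq start in GRCm38.p6, 5′ to 3′ on the gene's own strand. The count tables were made on GRCm39, so these positions do not apply to that build. Capitals mark a full match, on either strand, to 1 of 4 motifs. The CRE, bound by CREB and ATF proteins, was searched as TGACGTCA. The AP-1 site, bound by Fos and Jun dimers, was searched as TGAGTCA. The TATA box, where transcription of many inducible genes is positioned, was searched as TATAAA, and the CArG box of serum response factor by its usual degenerate form.
Fos (chr12:85473640-85473889, plus strand): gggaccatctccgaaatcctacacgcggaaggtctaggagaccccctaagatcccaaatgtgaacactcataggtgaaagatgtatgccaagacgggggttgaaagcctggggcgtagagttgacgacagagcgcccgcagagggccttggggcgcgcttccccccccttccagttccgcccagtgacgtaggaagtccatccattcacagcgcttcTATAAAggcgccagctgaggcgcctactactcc
Fosb (chr7:19310046-19310295, minus strand): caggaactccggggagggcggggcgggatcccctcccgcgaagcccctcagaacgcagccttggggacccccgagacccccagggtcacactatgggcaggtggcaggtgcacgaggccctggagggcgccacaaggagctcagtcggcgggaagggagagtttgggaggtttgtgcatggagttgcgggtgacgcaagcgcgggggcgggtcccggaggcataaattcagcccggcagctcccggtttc
Nr4a3 (chr4:48045055-48045304, plus strand): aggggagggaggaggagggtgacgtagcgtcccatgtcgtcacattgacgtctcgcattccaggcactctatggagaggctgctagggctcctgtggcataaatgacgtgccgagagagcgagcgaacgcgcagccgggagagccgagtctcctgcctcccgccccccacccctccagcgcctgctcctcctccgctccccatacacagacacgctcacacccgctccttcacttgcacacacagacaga
Atf3 (chr1:191183334-191183583, minus strand): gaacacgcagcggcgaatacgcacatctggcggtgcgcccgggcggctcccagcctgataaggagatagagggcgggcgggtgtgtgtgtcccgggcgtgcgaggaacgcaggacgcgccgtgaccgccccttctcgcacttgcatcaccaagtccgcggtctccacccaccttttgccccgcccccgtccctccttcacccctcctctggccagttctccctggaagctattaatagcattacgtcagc
Btg2 (chr1:134079156-134079405, minus strand): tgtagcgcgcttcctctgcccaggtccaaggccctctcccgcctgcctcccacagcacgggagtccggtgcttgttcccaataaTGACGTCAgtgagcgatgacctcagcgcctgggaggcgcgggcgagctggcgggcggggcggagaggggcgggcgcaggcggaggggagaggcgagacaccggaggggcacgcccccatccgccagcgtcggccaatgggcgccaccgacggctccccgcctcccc
Maff (chr15:79347270-79347519, plus strand): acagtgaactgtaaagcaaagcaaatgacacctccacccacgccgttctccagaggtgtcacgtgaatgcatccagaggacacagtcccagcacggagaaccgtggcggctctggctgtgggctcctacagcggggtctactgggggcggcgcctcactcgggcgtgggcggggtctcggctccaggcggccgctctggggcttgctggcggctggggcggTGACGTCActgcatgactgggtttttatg
In Fos a TATA box began 33 bases before the start. A full CRE began 166 bases before the start of Btg2 and 29 bases before 1 of the 3 starts of Maff. No full match was found in the windows of Fosb, Nr4a3 and Atf3, which says only that these letters are absent from 250 bases. Next in size among genes with a window were Csrnp1 and Jun, not shown. Csrnp1 held AP-1 sites in 1 of its 4 windows, and Jun held no full match. The CRE was in the windows of 2 of 20 members of the AP-1, Egr and Nr4a lists that rose and had a window (10%), and in 2.73% of 12838 tested genes with one. For the 111 genes apart and higher in every dose, 78 had a window and 7.69% of these held a CRE, against 0 of 59 for the genes apart and lower. AP-1 sites were in 8.97% and 3.39% of the same sets and in 4.36% of tested genes. TATA boxes were in 17.9% and 8.47%, and in 8.9% of tested genes. CArG boxes were in 1.28% and 1.69%, and in 1.39% of tested genes. Over all genes called higher, 1325 had a window, of which 3.25% held a CRE, 6.19% an AP-1 site, 13.3% a TATA box and 2.26% a CArG box. For 1148 called lower the shares were 2.18%, 4.18%, 6.27% and 1.13% in that order. In the 20 early genes with a window an AP-1 site was found in 5%, a TATA box in 10% and a CArG box in 0. Windows on 1 chromosome were left out of the search, so no share covers all genes. Of the 27 early genes called higher, only 20 had a window, and Egr1 was not among these 20. These shares are descriptions, and as spelled a CArG box can hold a TATA box within it. A gene was counted where any of its windows held the letters, at any place and on either strand. Genes with more windows therefore had more chances to be counted, and a match to the TATA letters need not lie where a TATA box works.

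Early genes of the Egr and Nr4a families and their relatives were higher in 16 of 20 members tested and lower in 1, with a median log2 fold change of 1.56. Egr4 and Npas4 were too low to test. Nr4a3, an orphan nuclear receptor, went from 0, 0.308 and 0.668 CPM (lowest, median, highest) at 10 weeks to 4.65, 11.4 and 30.7 CPM. The lowest cessation library, 10% EtOH replicate 1, was well above the highest library of 10 weeks. Nr4a3 rose by 5.46 ± 0.40 on the log2 scale, with the smallest adjusted p of all genes (8.5e-07 in edgeR). Nr4a1, of the same family, rose by 1.21 ± 0.15, from 33.7 to 48.6 CPM up to 61.4 to 162 CPM. Klf2 and Klf4, zinc-finger factors, rose by 1.88 ± 0.19 and 1.58 ± 0.20. Btg2, an antiproliferative early gene, rose by 2.29 ± 0.25, from 22.0 to 37.9 CPM up to 62.2 to 300 CPM. Egr1, a zinc-finger factor induced by growth factors, went from 14.9, 27.3 and 49.0 CPM to 58.5, 160 and 272 CPM. Its collections did not overlap either, and the log2 fold change was 2.48 ± 0.32 (edgeR adjusted p = 0.000367). In 10 of the 20 members the collections lay apart in every dose with cessation higher, as in 0.596% of all genes tested.

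Feedback regulators, which switch early signalling off again, were higher in 15 of 25 and lower in 2, with a median of 0.87. Socs3, an inhibitor of cytokine receptor signalling, went from 0.205, 1.1 and 3.3 CPM to 13.1, 40.4 and 70.3 CPM. No libraries overlapped, and Socs3 rose by 4.98 ± 0.41 (edgeR adjusted p = 7.45e-06). Gadd45b, a stress sensor of the p38 and JNK pathways, went from 1.22, 1.80 and 4.16 CPM to 11.3, 33.7 and 129 CPM. Here too the collections were apart, with a log2 fold change of 4.17 ± 0.45 (edgeR adjusted p = 5.96e-05). Dusp1, a phosphatase of MAP kinases, rose by 3.84 ± 0.35, and Zfp36 and Tnfaip3, which limit inflammatory transcripts and NF-kappaB signalling, by 2.15 ± 0.24 and 1.84 ± 0.24. Spry1, an inhibitor of receptor tyrosine kinase signalling, fell by 0.35 ± 0.09 on the log2 scale (edgeR adjusted p = 0.0169). Leaving out any single library left 9 to 11 members of the AP-1 list higher, 15 to 17 of the Egr and Nr4a list and 14 to 17 of the feedback list.

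Cytokines, chemokines and adhesion molecules of inflammation were higher in 19 of 24 and lower in 0, with a median of 2.10. Cxcl5 and Nos2 were too low to test. Il6, the gene of interleukin 6, had 2 counts in all libraries of 10 weeks and 1500 after cessation, a ratio of 885 per unit of depth (95% counting interval 245 to 7310). Its levels after cessation ran from 0.664 through a median of 11 to 26.5 CPM, against at most 0.103 CPM at 10 weeks. The ratio rests on counts found in a single 10-week library, and 10% EtOH cessation replicate 1 was the lowest after cessation (edgeR adjusted p = 2.04e-05). Sele, the endothelial adhesion molecule E-selectin, had 2 counts against 603, a ratio of 356 (98 to 2940). Its cessation libraries held 1.33, 2.36 and 16.9 CPM (lowest, median, highest), and no 10-week library exceeded 0.116 CPM (edgeR adjusted p = 4.81e-06). Selp, P-selectin of endothelium and platelets, went from 0.116, 0.668 and 1.06 CPM to 1.84, 10.5 and 65.7 CPM. There was no overlap, and Selp rose by 4.36 ± 0.67 (edgeR adjusted p = 0.0021). Il1b, the gene of interleukin 1 beta, went from 0.116, 0.251 and 0.81 CPM to 3.32, 6.13 and 15.4 CPM and rose by 4.47 ± 0.43 (edgeR adjusted p = 9.67e-06). The neutrophil chemokines Cxcl1 and Cxcl2 rose by 4.98 ± 0.68 and 4.89 ± 0.62. Their ranges were also apart, at most 0.531 and 0.347 CPM at 10 weeks and at least 1.33 and 0.664 CPM after cessation. Leaving out any single library left 16 to 20 members higher, and 17 were without the pair with odd identifiers.

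Adamts4, a protease of proteoglycans, was the exception among the largest rises in that its ranges overlapped: 0.347, 0.667 and 1.13 CPM at 10 weeks and 1.06, 23.9 and 82.9 CPM after cessation. It rose by 5.13 ± 0.72 (edgeR adjusted p = 0.00115). Ccn1, a matricellular early gene, went from 2.23, 3.13 and 10.5 CPM to 16.3, 48.1 and 141 CPM and rose by 3.95 ± 0.40. Apold1, an early gene of endothelial cells, went from 0.205, 0.590 and 0.805 CPM to 2.64, 8.25 and 22.4 CPM and rose by 3.98 ± 0.41 (edgeR adjusted p = 2.09e-05). Neither gene's collections overlapped.

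Other responses were mixed. Their counts are to be read beside the 10.6% of all genes that were higher and the 7.74% that were lower, and several are near these shares. Heat shock genes were higher in 7 of 24 and lower in 1. Hspa1a, the inducible Hsp70, rose by 1.60 ± 0.40, but its ranges overlapped (4.84 to 13.4 against 8.79 to 98.6 CPM). Without control cessation replicate 3 only 3 heat shock genes passed as higher. Genes of the integrated stress response, set off when translation initiation is restrained, were higher in 8 of 29 and lower in 5. Ddit3, which encodes the factor CHOP, went from 5.77, 7.88 and 11.5 CPM to 13, 27.7 and 277 CPM with no overlap and rose by 2.71 ± 0.49. Its feedback phosphatase subunit Ppp1r15a rose by 1.32 ± 0.24. In the same list the amino acid transporters Slc7a5, Slc3a2 and Slc7a1 fell by 0.71 ± 0.19, 0.44 ± 0.11 and 0.44 ± 0.12. Glucocorticoid response genes were higher in 9 of 15 and lower in 1, of which Dusp1, Errfi1 and Per1 also stand in the feedback list. Hypoxia and glycolysis genes were higher in 6 of 23 and lower in 2, and clock genes in 6 of 19 and 1. Interferon response genes were higher in 5 of 34, with Irf1 at 1.15 ± 0.22, and genes of MHC class II in 4 of 10 with 1 lower. The last pair of counts ran from 1 to 14 and from 0 to 5 when single libraries were left out, at the lowest without control 10-week replicate 1 (and some others) and at the highest without control cessation replicate 2. In the same way hypoxia and glycolysis genes that were lower ran from 1 to 4 (13 libraries moved this count by over 1.5 times), clock genes that were higher from 2, without control 10-week replicate 2, to 9, without 10% EtOH 10-week replicate 3, and clock genes that were lower from 0 to 1. Integrated stress response genes ran from 5 to 9 higher and from 3 to 5 lower. Without the pair with odd identifiers 5 integrated stress response genes, 4 of hypoxia and glycolysis, 3 of the interferon response and 1 of MHC class II were higher.

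**Figure D3:**
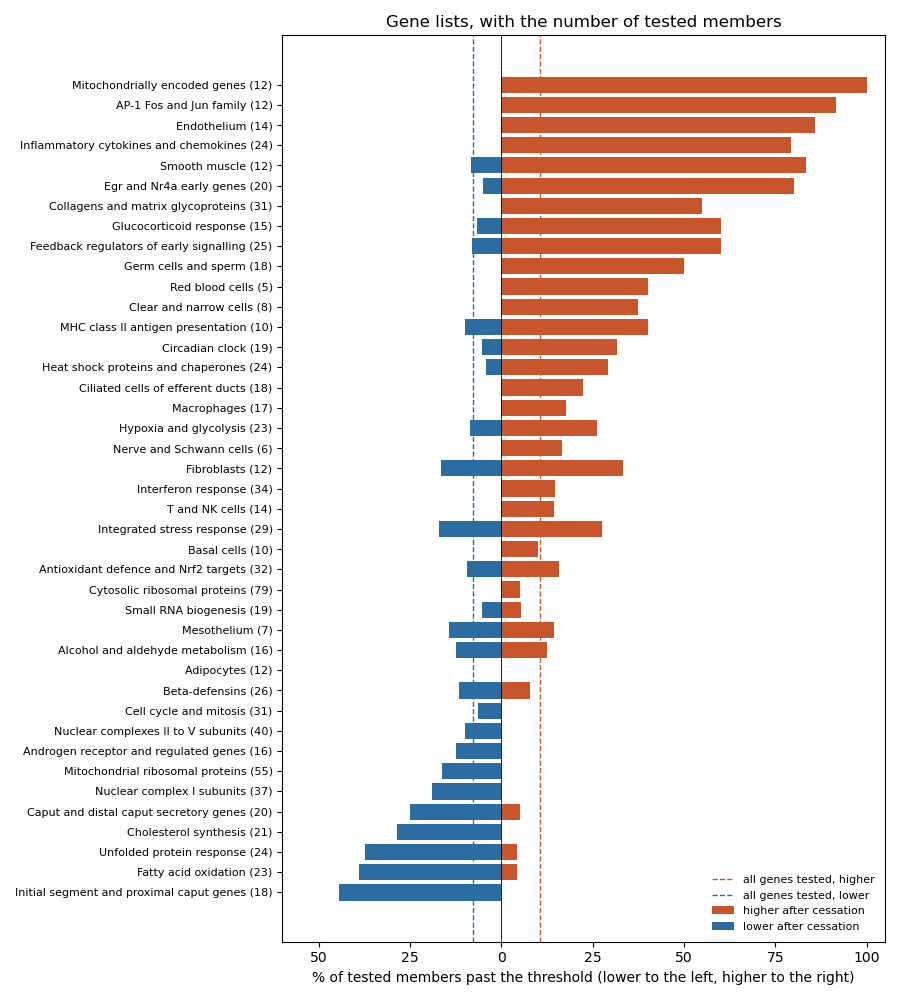
Percent of the tested members of each gene list that passed the threshold as higher (to the right) or lower (to the left) after cessation, with dashed lines at the shares of all genes tested (10.6% and 7.74%). Lists of at least 5 tested members are drawn, each with its number of members, and the early, cytokine, vessel, muscle and mitochondrially encoded lists reach furthest to the right.

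The falls of the 15 named genes were small beside the rises. Nipal4, a putative magnesium transporter, fell most among the genes named, from 7.11, 9.55 and 12.4 CPM (lowest, median, highest) at 10 weeks to 3.27, 4.86 and 6.77 CPM. All 9 cessation libraries were below all 9 of 10 weeks, and Nipal4 fell by 0.97 ± 0.16 on the log2 scale (edgeR adjusted p = 0.00172). Pou3f1, a POU-domain transcription factor, went from 15.3, 17.5 and 23.2 CPM to 4.76, 10.5 and 15 CPM. The highest cessation library came just under the lowest of 10 weeks, and the fall was by 0.78 ± 0.19 (log2, edgeR adjusted p = 0.0159). Sema4a, a transmembrane semaphorin, went from 156, 174 and 198 CPM to 99.9, 116 and 146 CPM. Its collections were apart as well, and it fell by 0.55 ± 0.09 (log2, edgeR adjusted p = 0.00172). Tmem150c, a membrane protein, went from 644, 709 and 875 CPM to 222, 475 and 659 CPM and fell by 0.67 ± 0.17. In that gene the highest cessation library (10% EtOH replicate 1) exceeded the lowest of 10 weeks (6% EtOH replicate 1).

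Enzymes of lipid metabolism were among the named falls. Degs2, a sphingolipid hydroxylase and desaturase, fell by 0.71 ± 0.14, Fads1, a fatty acid desaturase, by 0.54 ± 0.14 and Hacd3, a dehydratase of fatty acid elongation, by 0.54 ± 0.12 on the log2 scale. Fads1 went from 537, 558 and 633 CPM to 249, 394 and 548 CPM. The collections overlapped by the highest cessation library and the lowest pair of 10 weeks. The adrenergic receptor gene Adra2c fell by 0.57 ± 0.12, the endocytic receptor gene Lrp10 by 0.54 ± 0.11, and Slc41a1, a magnesium transporter, by 0.54 ± 0.10. Lrp10 went from 167, 186 and 196 CPM to 81.8, 128 and 169 CPM, so that the highest cessation library just exceeded the lowest of 10 weeks. Glb1, the lysosomal beta-galactosidase, and Nectin4, an adhesion molecule, both fell by 0.53, with errors of 0.10 and 0.11. Armcx2, the histone gene H4c11 and Them6 completed the 15 (falls of 0.57 ± 0.14, 0.57 ± 0.16 and 0.56 ± 0.16), of which H4c11 has near-identical copies that the counting could divide. Them6 lost its call in 6 alternatives, among them without 6% EtOH 10-week replicate 3, 10% EtOH 10-week replicate 2, control cessation replicate 3 or 10% EtOH cessation replicate 2. H4c11 lost its call with 1 surrogate variable (edgeR adjusted p = 0.0652).

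**Figure D4:**
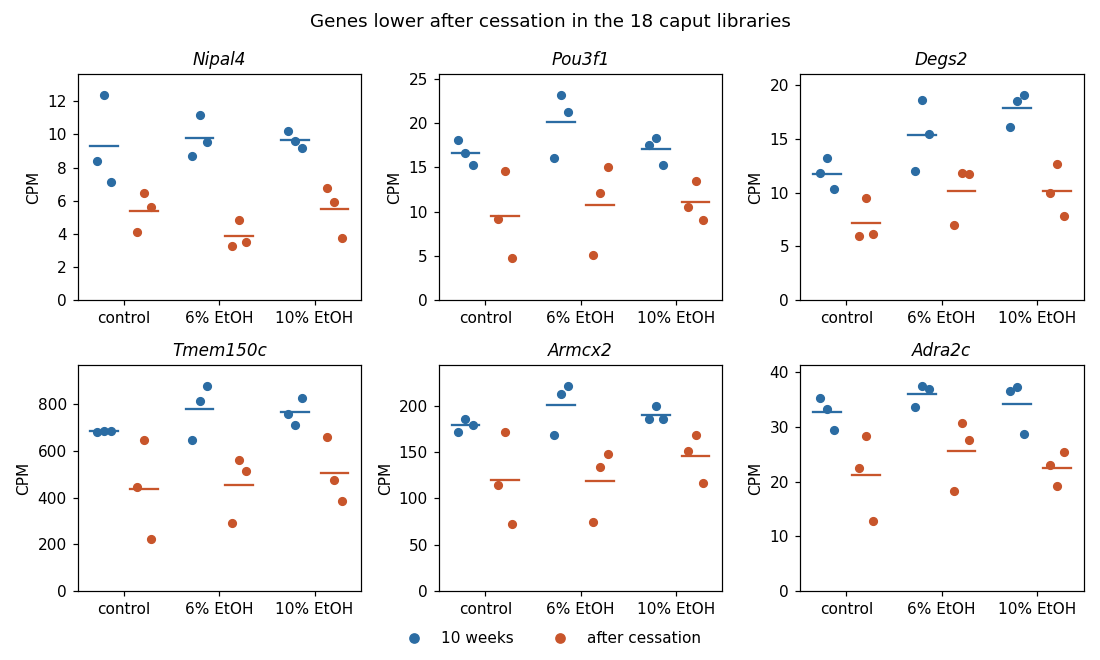
Level of the 6 named genes with the largest falls in each library (points, CPM on a linear axis from 0) by dose and collection, with lines at the means of 3 libraries. The genes were chosen for libraries that lie apart in every dose, which the separation within doses repeats.

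Initial segment and proximal caput genes were lower in 8 of 18 and higher in 0, with a median of -0.43. Rnase10, a secreted protein of the initial segment, went from 3210, 5070 and 7540 CPM to 1010, 2820 and 4570 CPM and fell by 0.85 ± 0.24. Its ranges overlapped between collections. Etv5, a transcription factor that maintains the initial segment, fell by 0.75 ± 0.23, and the lipocalin genes Lcn2, Lcn8 and Lcn9 by 0.58 ± 0.15, 0.58 ± 0.18 and 0.60 ± 0.21. Ros1, the receptor kinase needed for this segment to form, fell by 0.48 ± 0.14. The count of initial segment genes was 1 without 6% EtOH 10-week replicate 3 or 10% EtOH cessation replicate 3, 11 without control cessation replicate 2 and 2 without the pair with odd identifiers. It was 13 with length and GC trends removed. Secretory genes of the caput proper were lower in 5 of 20 and higher in 1, with 3 to 8 lower when single libraries were left out and 11 with length and GC trends removed. Mfge8, a sperm-coating glycoprotein, fell by 0.66 ± 0.18, from 5280, 6850 and 9020 CPM to 2450, 4240 and 6430 CPM, and Wfdc10 by 0.60 ± 0.14. Gpx5 did not pass (-0.47 ± 0.19, edgeR adjusted p = 0.0798). Beta-defensin genes were higher in 2 of 26 and lower in 3, where 10.6% of all genes were higher and 7.74% lower. Of 16 androgen-related genes the steroid 5-alpha-reductases Srd5a1 and Srd5a2 fell, by 0.74 ± 0.19 and 0.33 ± 0.10.

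In the nuclear-encoded lists given next, most genes that passed were lower, by small amounts. Of all genes tested 7.74% passed as lower and 10.6% as higher, and the share of complexes II to V was near the first. Fatty acid oxidation genes were lower in 9 of 23 and higher in 1, which was Pdk4, a kinase that spares glucose (1.39 ± 0.31). Cpt2 and Cpt1a, which carry fatty acids into mitochondria, fell by 0.47 ± 0.13 and 0.45 ± 0.14. Cholesterol synthesis and uptake genes were lower in 6 of 21, among them Srebf2, a transcription factor of sterol synthesis (-0.52 ± 0.13). Genes of the unfolded protein response were lower in 9 of 24, including Calr (-0.38 ± 0.12), and higher in 1, Dnajb9 (0.31 ± 0.11). Dnajb9 lost its call without any 1 of 14 libraries and with RLE factors. Nuclear subunits of complex I were lower in 7 of 37, those of complexes II to V in 4 of 40 and mitochondrial ribosomal proteins in 9 of 55, and none of these rose. Their medians were -0.13, -0.13 and -0.15. These counts depended on the correction: with length and GC trends removed, 22, 22 and 29 were lower, where 3496 of all 18618 genes were. The same correction gave 14 lower genes of fatty acid oxidation, 11 of cholesterol and 17 of the unfolded protein response. Among single left-out libraries the lower counts ran from 4 to 12 for fatty acid oxidation, from 2 to 15 for cholesterol, from 2 to 17 for the unfolded protein response and from 0 to 14 for complex I. The ranges were 1 (without 6% EtOH 10-week replicate 3) to 12 for complexes II to V and 4 (without control 10-week replicate 2) to 16 for mitochondrial ribosomal proteins, both highest without 10% EtOH cessation replicate 1. For the other lists, the lowest came without control 10-week replicate 1 among others (the first pair), 10% EtOH cessation replicate 3 and control 10-week replicate 2. The highest came without control cessation replicate 2 or, for complex I, 6% EtOH cessation replicate 2. The counts of fatty acid oxidation, cholesterol, the unfolded protein response and complex I moved by over 1.5 times without any of 9, 13, 12 and 15 libraries. Without the pair with odd identifiers they were 6, 2, 3 and 3.

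Enzymes of alcohol and aldehyde metabolism were higher in 2 of 16 and lower in 2. Adh1, an alcohol dehydrogenase, rose by 0.60 ± 0.19 and Aldh3a1, an aldehyde dehydrogenase, by 1.91 ± 0.61, while Aldh3a2 and the aldehyde reductase gene Akr1a1 fell by 0.29 ± 0.09 and 0.42 ± 0.12. Leaving out single libraries gave 0 (such as without control 10-week replicate 1) to 5 (without control cessation replicate 2) alcohol and aldehyde genes that were higher, and 0 to 3 that were lower. Without the pair with odd identifiers 0 were higher and 1 was lower. Antioxidant genes were higher in 5 of 32 and lower in 3, beside 10.6% and 7.74% of all genes, with the haem oxygenase gene Hmox1 at 1.98 ± 0.51 and the secreted peroxidase gene Gpx3 at 0.99 ± 0.21. Their count fell to 2 higher without control 10-week replicate 2, and the lower count ran from 0 (such as without control 10-week replicate 1) to 9 (without control cessation replicate 2) and was 12 with length and GC trends removed. Genes of small RNA biogenesis were higher in 1 of 19, Rnase4 (0.56 ± 0.17), and lower in 1, the tRNA-processing gene Elac2 (-0.33 ± 0.10). Cell cycle genes were higher in 0 of 31 and lower in 2, Ccnd1 (-0.32 ± 0.10) and Mcm2 (-0.29 ± 0.09). Leaving out single libraries gave 0 to 1 higher and 0 to 3 lower for small RNA biogenesis, and 0 to 5 lower for the cell cycle.

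All 12 mitochondrially encoded genes tested were higher after cessation, with a median of 0.95 and mt-Co1, a subunit of complex IV, at 1 ± 0.26 (edgeR adjusted p = 0.0198). Libraries of both collections overlapped widely: mt-Co1 ranged from 3150 through 4940 to 11200 CPM at 10 weeks and from 4070 through 8860 to 19400 CPM after cessation. These genes have near-copies in the nuclear genome, so the counting could divide their reads. Only 1 of them passed without control 10-week replicate 1, and the count moved by over 1.5 times without any of 12 libraries. With length and GC trends removed 4 passed. Of the 13 mitochondrially encoded genes listed, mt-Atp8 was too low to test. Cytosolic ribosomal proteins were higher in 4 of 79 and lower in 0, with a median of 0.00, where 10.6% of all genes were higher and 7.74% lower. With length and GC trends removed 0 were higher and 4 lower.

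Markers of some other cell types also differed between collections, to be read beside 10.6% of all genes higher and 7.74% lower. Endothelial markers were higher in 12 of 14, with a median of 1.14, and their summed level ranged from 75.6 to 139 CPM at 10 weeks and from 89.7 to 514 CPM after cessation. Tie1, an endothelial receptor, went from 2.14, 3.75 and 5.84 CPM to 3.99, 8.15 and 24.2 CPM and rose by 1.40 ± 0.33 (edgeR adjusted p = 0.0154). Smooth muscle markers were higher in 10 of 12 and lower in 1, with a median of 1.26 and sums of 1600 to 2350 and 1500 to 2440 CPM. Acta2, smooth muscle actin, went from 53.8, 92.4 and 136 CPM to 74.9, 194 and 496 CPM and rose by 1.39 ± 0.32, while Actg2, another smooth muscle actin, fell by 0.59 ± 0.20. Actg2 lost its call without any 1 of 14 libraries and without the pair with odd identifiers. Collagens and matrix glycoproteins were higher in 17 of 31, with Postn at 1.40 ± 0.26. Germ cell and sperm markers were higher in 9 of 18 (sums of 191 to 341 and 259 to 540 CPM), and Tnp1, a protein of spermatid chromatin, rose by 1.40 ± 0.31. Markers of the ciliated cells of efferent ducts were higher in 4 of 18, with sums of 56.0 to 158 and 57.9 to 486 CPM. The count of germ cell markers ran from 5 without control 10-week replicate 1 to 14 without control cessation replicate 2, and that of ciliated cells from 0 without control 10-week replicate 2 to 10 without control cessation replicate 2. These were 4 and 2 without the pair with odd identifiers. In bulk tissue, more cells of a type and more RNA per cell cannot be told apart.

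The cessation libraries highest for endothelial markers were also the highest for AP-1 genes. Mean centred log2 levels of the endothelial list were 1.81 in control replicate 3 and 1.67 in 6% EtOH replicate 1, the libraries with the highest AP-1 levels (2.38 and 2.05). They were -0.87 in control replicate 2, the library with the lowest AP-1 level (0.02). The endothelial levels of 10 weeks ran from -1.13 to -0.22, so 2 cessation libraries lay within them, control replicate 2 and 6% EtOH replicate 3 (-0.37). The order was not the same throughout. In 6% EtOH replicate 3 the AP-1 level was 1.32, above every cessation library of 10% EtOH (0.53, 0.92 and 0.8). AP-1 levels of 10 weeks ran from -1.42 to -0.67, and the 9 cessation libraries, from 0.02 to 2.38, were all above. The cytokine levels of 10 weeks (-1.35 to -0.77) and of cessation (-0.17 to 2.39) did not overlap either. The part of cell composition in these results was not tested. Without the pair with odd identifiers, 4 endothelial markers, 8 of smooth muscle and 7 of the matrix list passed as higher, against 10 of the AP-1 list. Single left-out libraries, 10 and 11 of which moved the counts by over 1.5 times, took the endothelial count from 3, without control 10-week replicate 2, to 13, without control cessation replicate 2, and the matrix count from 7, without control 10-week replicate 1, to 25, without control cessation replicate 2.

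**Figure D5:**
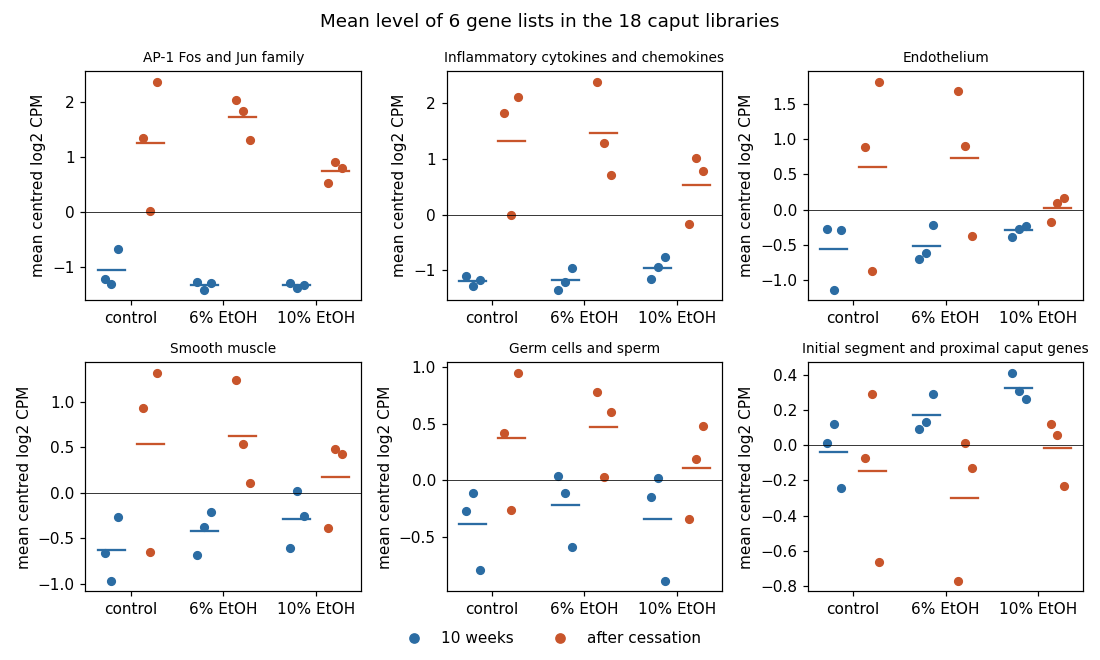
Mean centred log2 CPM over the members of 6 gene lists in each library (points) by dose and collection, with lines at the means of 3 libraries. AP-1 and cytokine levels of the collections do not overlap, whereas the endothelial, smooth muscle, germ cell and initial segment levels do.

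The counts of the other marker lists stand beside 10.6% of all genes higher and 7.74% lower. Fibroblast markers were higher in 4 of 12 and lower in 2, macrophage markers higher in 3 of 17, T and NK cell markers in 2 of 14, clear and narrow cell markers in 3 of 8 and basal cell markers in 1 of 10. B and plasma cell markers were higher in 2 of the 4 that could be tested, nerve markers in 1 of 6 and mesothelial markers in 1 of 7 with 1 lower. Of 11 neutrophil and mast cell markers 10 were too low to test, among them S100a8 and S100a9, and the other did not pass. Adipocyte markers passed in 0 of 12 by edgeR, and 1 of them, Pnpla2, had an unadjusted p under 0.05 (-0.26 ± 0.09). Red blood cell transcripts were higher in 2 of 5, Hbb-bs by 1.31 ± 0.42, although 1 library of 10 weeks reached 102 CPM against 113 CPM after cessation. Most of these counts moved when single libraries were left out, with 1 to 6 fibroblast, 1 to 8 macrophage, 1 to 4 T and NK cell, 1 to 4 clear and narrow cell, 0 to 2 basal cell and 0 to 3 red blood cell markers higher. Each was lowest without control 10-week replicate 1, in some lists among others. The highest counts came without control cessation replicate 2 (fibroblasts, T and NK cells, clear and narrow cells), 10% EtOH cessation replicate 1 (macrophages), 10% EtOH 10-week replicate 3 (basal cells) and 6% EtOH 10-week replicate 3 (red blood cells). In the order given they were 1, 4, 1, 1, 0 and 0 without the pair with odd identifiers.

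The difference was also taken within each dose. In controls 22 genes passed, all higher (0.118% of those tested), with 6% EtOH 35 (0.188%) and with 10% EtOH 4 (0.0215%), and none was lower in edgeR. The first of these counts was 0 without control 10-week replicate 2 and 2724 without control cessation replicate 2. The second was 0 without any 1 of the 10-week libraries of that dose and 88 without 6% EtOH cessation replicate 3, and the last was 0 without any 1 library of its dose. At an unadjusted p under 0.05 the numbers were 3774, 3558 and 1708, where 931 were expected by chance. Nr4a3 and Socs3 passed in all 3 doses. Nr4a3 rose by 5.78 in controls, 5.22 with 6% EtOH and 5.31 with 10% EtOH, and Socs3 by 4.72, 5.59 and 4.64. Of 40 genes that passed in at least 1 dose, 38 also passed over all doses. The exceptions, chosen for mention after their values were seen, were Fn1, the gene of fibronectin, and the predicted gene Gm31763. Of the 22 genes that passed in controls, 22 were in the same direction with 6% EtOH and 20 with 10% EtOH, with median log2 fold changes of 3.77, 4.21 and 2.09. The 35 that passed with 6% EtOH were in the same direction in both other doses, with medians of 4.33 there, 3.64 in controls and 2.17 with 10% EtOH.

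No gene passed a test of whether the difference between collections depended on dose (725 at an unadjusted p under 0.05, with 931 expected by chance, and a smallest adjusted p of 0.996 in edgeR). DESeq2 and voom also gave 0, with smallest adjusted p of 0.0752 in DESeq2 and 0.986 in voom. At an unadjusted p under 0.05 they gave 1019 and 682 genes. Without a filter on low counts 376 passed in edgeR, 372 of them among the genes tested here. Fn1 had the smallest p of those that did not pass, with log2 fold changes of 0.73 in controls, 0.17 with 6% EtOH and -0.29 with 10% EtOH (edgeR adjusted p = 0.996). For Fos the values were 3.06, 6.63 and 6.00, the first resting on the control library of 10 weeks that stood apart. Median log2 fold changes of the AP-1 list were 2.32, 2.42 and 1.5 in the same order, of the cytokine list 2.57, 2.84 and 1.03, and of the endothelial list 1.57, 1.59 and 0.33. That these medians differ between doses was not tested. Ethanol dose itself, over both collections, gave 0 genes in edgeR (1598 at an unadjusted p under 0.05, smallest adjusted p 0.568).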

How the data were processed

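RNA-seq values were whole-number read counts per gene, 1 table per library, as deposited by the authors. Trimmomatic, STAR, featureCounts and build GRCm39 (mm39) are named in the submitters' processing notes. The sources used here do not give their versions, the annotation release, the strand setting or how multiply matching reads were treated, so overlapping or antisense genes and near-identical copies are uncertain. All 18 tables listed the same 53819 entries. Totals ranged from 10.72M to 21.07M, and pairs of replicates differed by a chi-square per degree of freedom of 5.79 or more, beyond sampling noise.

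Counts were tested with edgeR 4.0.16 in R 4.3.3: TMM scaling, filterByExpr (minimum count 10, total 15), and the robust quasi-likelihood test with terms for dose and collection over all 18 libraries. Benjamini-Hochberg adjustment ran over 18618 genes at 0.05. Within-dose contrasts and the dose by collection test used a fit of 6 group means. Standard errors are those implied by the test, and levels are TMM CPM. On simulated counts the test recovered 45.5%, 88.1% and 97% of genes changed by log2 0.5, 1 and 2, with 4.94% false calls (18115 genes). The simulation gave each gene the same spread in both collections and changed only 66, 67 and 67 genes at these sizes. In the data the variation was 17% at 10 weeks and 31.2% after cessation, and 3417 genes passed. The simulated rates may therefore not hold here. Alternatives included DESeq2 1.42.0, voom in limma 3.58.1 and sva 3.50.0.

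The comparison, its members and the 44 gene lists were chosen with earlier results of these data known. Named genes passed the threshold, averaged a log2 CPM of 1 or more and were apart in every dose: the 15 largest rises and 15 largest falls, predicted genes left out (5 and 3 of 77 and 78 qualifying). Within lists, up to 6 called members of smallest p could be named, beside background genes of the tissue. Promoter windows are from RefSeq (GRCm38.p6).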

Additional observations from a re-analysis of the deposited data

Results flagged for a closer look

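In each collection of 9 libraries, a library was marked where its gap to the next took up more of the whole range than Dixon's 95% limit for 9 values allows. The 30 named genes (as log2 of CPM + 0.1), 41 list levels and the library totals gave 144 groups, of which 16 were marked, where chance marks about 1 in 20. No explanation of these values was tested.

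Control 10-week replicate 3 stood above the other libraries of 10 weeks for Fos (22.4 CPM, next 2.31), Fosb (10.9 CPM, next 0.956) and Ccn1 (10.5 CPM, next 4.90). It was also the highest for the AP-1 list (mean centred log2 level -0.67, next -1.22) and the feedback list (-0.30, next -0.51), and the lowest for Selp (0.116 CPM, next 0.513). It still lay below every cessation library for Fos, Fosb and Ccn1.

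In 4 further cases at 10 weeks the values were below 1 CPM. Il6 was detected in control replicate 1 alone (0.103 CPM) and Sele in 6% EtOH replicate 2 alone (0.116 CPM). Nr4a3 was at 0 CPM in 10% EtOH replicate 3 (next 0.225), and Apold1 at 0.205 CPM in control replicate 1 (next 0.463). Them6 was highest in 10% EtOH replicate 2 at 10 weeks (6.44 CPM, next 4.52), 1 of the libraries without which its fall did not pass.

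Among list levels of 10 weeks, 10% EtOH replicate 3, whose identifier stood apart, was lowest for hypoxia and glycolysis (-0.29, next -0.14) and highest for macrophage markers (0.46, next -0.04). The clock list was lowest in 10% EtOH replicate 2 (-0.30, next -0.17). After cessation, control replicate 2 was highest for cell cycle genes (0.34, next 0), and control replicate 1 for T and NK cell markers (1.63, next 0.58).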

How the results depend on the processing

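The 3417 calls between collections shared a direction with every one of 30 alternatives wherever a gene passed in both. Of them 1337 passed in each of the 18 leave-one-out fits and 585 in all 30 alternatives (321 higher, 264 lower). With 1 surrogate variable 655 passed (384 higher, 271 lower), and with length and GC trends removed 3496 were lower. Leaving out 1 library gave 1680 to 5331 calls (965 to 2944 higher, 608 to 2464 lower). The count moved by over 1.5 times without control 10-week replicate 1 (1900) or 2 (1710), 6% EtOH 10-week replicate 2 (1905) or 3 (1752), 10% EtOH 10-week replicate 1 (2183), control cessation replicate 1 (2101), 2 (5324) or 3 (1680), 6% EtOH cessation replicate 1 (1956), and 10% EtOH cessation replicate 1 (5331) or 3 (1714). The cause was not tested. Without a dose term 3678 passed, with RLE factors 3518, with DESeq2 4722, with voom 3642 and after thinning to the smallest library 3084.

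Within doses the counts were unstable. The 22 genes of controls became 0 with the 6 libraries of that dose alone, 1740 without a low-count filter, 923 with DESeq2, and 0 to 2724 when 1 library was left out. The 35 with 6% EtOH became 106, 1805, 404 and 0 to 88 in the same order, and the 4 with 10% EtOH became 17, 573, 87 and 0 in every leave-out. The dose by collection test gave 376 without a low-count filter (smallest adjusted p 4.87e-36 in edgeR, 372 among the genes tested in the report) and 0 in its other alternatives, leave-outs included; the cause was not tested. Genes apart in every dose numbered 208 with RLE factors and 174 after thinning. Of the 30 named genes, 28 kept their call in all 30 alternatives. No paired analysis was possible because the labels carry no replicate numbers shared between groups. Reads were fewer after cessation, and library totals of the collections overlapped in part. Il6 and Sele had 2 counts each at 10 weeks, the deeper collection, so their levels there are bounded by counting error. After thinning every library to 10.72M counts, 2800 of the 3417 calls passed, each in the same direction.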
